A study of Mus musculus with 20 samples.

Results

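Ribosome biogenesis was followed through 45 genes in the transcriptomes of single cells from interscapular brown adipose tissue (iBAT) of mice. The genes were taken by symbol from the gene list of the matrices, where all 45 of 45 were found among 31053 gene rows. They encode 6 proteins of RNA polymerase I transcription, 3 of the box C/D particle, 4 of the box H/ACA particle, 1 assembly factor of these particles (Nolc1), 11 small subunit factors, 15 large subunit factors, 4 abundant nucleolar proteins and the transcription factor Myc. The study compared progenitors and immune cells of iBAT from animals at room temperature with those of cold-exposed and of agonist-treated animals, and stromal vascular cells were split with magnetic beads against lineage markers into immune-enriched (Lin+) and immune-depleted (Lin-) fractions.

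There were 20 libraries from 10 experiments, each experiment giving a Lin+ and a Lin- library. Of the C57BL/6J (C57) experiments, all on males, 2 were at room temperature (RT), 2 followed 4 days at 6 °C (COLD) and 2 followed 4 days of CL316,243 (CL), an agonist of the β3-adrenergic receptor, given at 0.75 nmol per hour by pump. Female mice homozygous for a floxed Adrb1 allele, either without Cre (WT) or with 1 copy of a tamoxifen-inducible Cre driven by Pdgfra (KO), gave 1 experiment each at RT and in COLD. WT and KO animals had all received tamoxifen, and recombination is limited to cells in which Pdgfra is active. The Adrb1 line RT libraries were made with kit version 3 and all other libraries with version 2, and in that line neither the kit nor the day of collection can be told apart from cold. Mice were 8 to 14 weeks old and 3 to 4 animals were pooled for each library, so the spread between replicates is a spread between pools.

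A ribosome is made in the nucleolus. RNA polymerase I copies the ribosomal DNA into a long precursor, small nucleolar particles of the box C/D and box H/ACA kinds guide methylation and pseudouridylation of that RNA, and a large set of assembly factors folds and cuts it into the small and large subunits. Myc is known to raise transcription of genes at each of these steps. Demand for ribosomes is high in growing and dividing cells, and in cold-exposed iBAT progenitors divide and differentiate to brown adipocytes.

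After filters, 126274 cells remained, with 2424 to 12894 cells and a total of 7857160 to 41979800 UMIs (unique molecular identifiers) per library. Classes were named by fixed markers: 3 adipose stromal cell subtypes (ASC1, ASC2, ASC3), vascular endothelial cells (VEC), adipocyte-like cells, macrophages (MAC), monocytes (MONO) and dendritic cells (DEND). Each cell was thinned to 1000 UMIs and called cycling when it held 3 or more UMIs of S and G2/M genes, none of which is a member, and cells with fewer than 1000 UMIs entered neither side. In ASC1-like cells this left 1764 cycling cells among 16483, with 351 cells on the threshold and 1020 cells 1 UMI below it. Adrb1 itself gave 12 and 49 UMIs in non-cycling ASC1-like cells of the WT libraries and 1 and 3 UMIs in those of the KO libraries.

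Some libraries stood apart. RT replicate 2 of the Lin- fraction kept 28.0% of its barcodes, because 72.0% of them had 10% or more mitochondrial UMIs. In its ASC1-like cells ribosomal protein genes made up 2.16% of UMIs, against 9.17% in RT replicate 1 and 11.7% to 13.7% in the COLD and CL libraries. Lin+ and Lin- libraries of CL replicate 2 shared 1098 barcodes, 17.1% of the smaller library, where the next pair of libraries shared 2.04%. Without the shared barcodes the cold and CL counts of called members in ASC1-like cells, 27 and 0 with them, were 24 and 0.

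The promoter, here 250 bases before to 50 bases after the annotated start in RefSeq (GRCm38.p6), was on hand for 39 of the 45 genes. The E-box CACGTG, the letters that Myc and its partner Max bind, occurred in 8 of 39 (20.5%), in 17 of 80 promoters of other assembly factors (21.2%) and in 7.24% of all 27025 promoters. The GC box GGGCGG was found in 74.4% of the members and 35.9% of all promoters, CCAAT in 30.8% and 37.9%, GCGCATGC in 2.56% and 2.8%, and TCGCGAGA in 10.3% and 1.08%. All were searched on both strands, and none of the 5 motifs contains another. The promoters of 4 genes with an E-box that rose in cold ASC1-like cells are shown, with that of Wdr12, which had the largest change there and holds no E-box in this window. Capitals mark the E-box, and positions are counted from 1 at the annotated start.

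The E-box begins at position 16 in Utp4 (small subunit), at position -60 in Nop2 (an RNA methyltransferase of the large subunit), at position 3 in Pes1 (large subunit) and at position 41 in Mybbp1a (a nucleolar Myb-binding protein). The windows are chr8:106893390-106893689, + strand, for Utp4, chr6:125131633-125131932, + strand, for Nop2, chr11:3963725-3964024, + strand, for Pes1, chr11:72441077-72441376, + strand, for Mybbp1a and chr1:60098451-60098750, - strand, for Wdr12. A match is a run of letters and not a measured binding site.
Utp4: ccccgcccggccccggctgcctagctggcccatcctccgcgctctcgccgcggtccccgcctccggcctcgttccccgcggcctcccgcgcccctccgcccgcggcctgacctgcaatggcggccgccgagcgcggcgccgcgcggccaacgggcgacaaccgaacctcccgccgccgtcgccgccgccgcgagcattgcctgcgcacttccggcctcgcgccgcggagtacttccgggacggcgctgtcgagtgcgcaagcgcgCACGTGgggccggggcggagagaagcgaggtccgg
Nop2: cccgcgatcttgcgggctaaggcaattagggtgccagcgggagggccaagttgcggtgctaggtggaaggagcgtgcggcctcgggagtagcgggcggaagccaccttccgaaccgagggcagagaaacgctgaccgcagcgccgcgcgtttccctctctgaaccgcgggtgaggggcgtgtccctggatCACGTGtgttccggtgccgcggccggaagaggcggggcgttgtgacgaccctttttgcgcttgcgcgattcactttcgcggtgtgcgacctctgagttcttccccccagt
Pes1: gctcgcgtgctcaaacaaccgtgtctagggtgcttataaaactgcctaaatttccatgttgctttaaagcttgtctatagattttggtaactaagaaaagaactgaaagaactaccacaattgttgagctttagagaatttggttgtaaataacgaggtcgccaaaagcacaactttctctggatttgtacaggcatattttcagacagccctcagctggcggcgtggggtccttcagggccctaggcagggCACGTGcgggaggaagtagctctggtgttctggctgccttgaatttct
Mybbp1a: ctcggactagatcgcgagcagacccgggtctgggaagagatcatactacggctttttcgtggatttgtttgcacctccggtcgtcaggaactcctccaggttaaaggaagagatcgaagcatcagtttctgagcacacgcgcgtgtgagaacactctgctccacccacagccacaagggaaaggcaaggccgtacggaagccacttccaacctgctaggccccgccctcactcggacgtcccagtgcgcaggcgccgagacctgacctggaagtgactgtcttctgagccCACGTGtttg
Wdr12: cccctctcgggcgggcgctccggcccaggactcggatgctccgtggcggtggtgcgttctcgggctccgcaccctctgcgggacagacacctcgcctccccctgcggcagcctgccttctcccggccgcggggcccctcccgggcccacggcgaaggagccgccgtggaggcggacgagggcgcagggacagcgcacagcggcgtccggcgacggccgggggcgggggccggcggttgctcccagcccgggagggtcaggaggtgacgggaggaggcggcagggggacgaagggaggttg

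In COLD the summed level of the 45 genes was highest in adipocyte-like cells. Classes were built from the same cells, so the order of classes is a description with no test. Levels are summed UMIs of the members as counts per 1000000 UMIs of those cells (CPM), as mean ± SD of the 2 C57 replicates. Non-cycling adipocyte-like cells had 8103 ± 171 CPM in COLD and 5826 ± 1882 in CL. ASC1-like cells had 2235 ± 416 CPM at RT, 3586 ± 417 in COLD and 2586 ± 485 in CL. In ASC2-like cells the level was 2604 ± 598 at RT, 2354 ± 275 in COLD and 2270 ± 116 in CL. Abundant members, Npm1 and Ncl among them, weigh most in these sums. In ASC1-like cells the nucleolar proteins, which include both, made up 608 and 593 CPM at RT and 1393 and 1155 in COLD. Large subunit factors made up 359 and 619 CPM at RT and 843 and 698 in COLD.

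ASC3-like cells held 2237 ± 442 CPM at RT and 1949 ± 103 in COLD, and VEC-like cells 2317 ± 407 and 2221 ± 3.14. In the Lin+ fraction DEND-like cells held 2910 ± 17.2 at RT and 2953 ± 215 in COLD, MAC-like cells 2170 ± 155 and 2285 ± 98.3, and MONO-like cells 2060 ± 17.0 and 2374 ± 206. At RT the ranges of ASC1-, ASC2-, ASC3- and VEC-like cells overlapped. In COLD both ASC1-like values, 3881 and 3291 CPM, lay above both values of ASC2-, ASC3-, VEC-, MAC-, MONO- and Lin+ DEND-like cells. Of the lymphoid classes, which were formed but not tested, T-cell-like cells held 4508 and 4521 CPM in COLD and Lin+ NK-like cells 4637 and 4754, above both ASC1-like values, and B-cell-like cells held 3819 and 3872, between them. At RT the T-cell-like values were 3755 and 3934 CPM, the Lin+ NK-like values 3649 and 3795 and the B-cell-like values 3109 and 3151. In each of these classes both COLD values lay above both RT values. In CL replicate 2 without shared barcodes, leaving out Npm1 and Ncl took ASC1-like cells from 2092 to 1483 CPM. T-cell-like cells went from 4103 to 1991, Lin+ DEND-like cells from 2665 to 1575 and MONO-like cells from 2093 to 1259. Whether the order of classes in COLD holds without these genes was not tested.

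**Figure D1:**
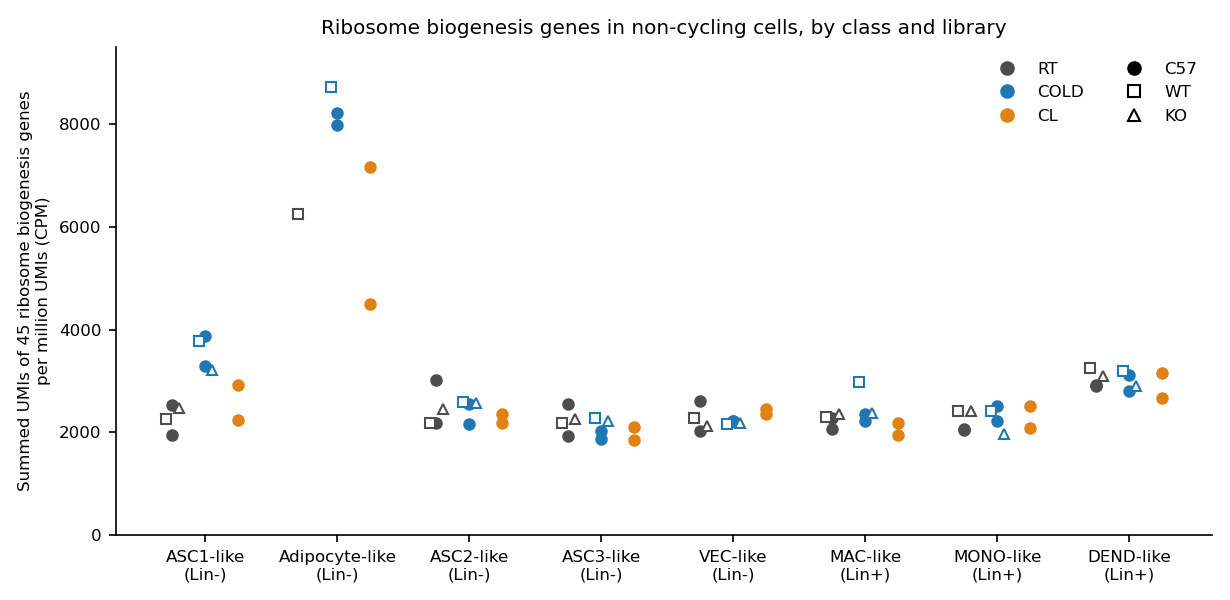
Summed level of the 45 ribosome biogenesis genes (CPM, vertical axis) in non-cycling cells of each class (horizontal axis), with 1 point per library coloured by treatment and line. Of the classes drawn, which leave out the lymphoid ones, adipocyte-like cells lie highest, at 7982 and 8224 CPM in the C57 COLD libraries. ASC1-like cells of COLD lie above those of RT.

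The order of classes differed from gene to gene. Averaged over the 6 C57 libraries of a fraction and among 7 classes, leaving out adipocyte-like cells, 17 members were highest in ASC1-like, 11 in DEND-like, 9 in VEC-like, 3 in ASC2-like, 4 in MONO-like and 1 in ASC3-like cells, and 0 in MAC-like cells. Fbl, the methyltransferase of the box C/D particle, was at 196 ± 17.4 CPM in DEND-like and 64.0 ± 11.3 in ASC3-like cells (SD, n = 6 libraries). Ubtf, which opens ribosomal DNA for polymerase I, was at 116 ± 33.5 CPM in ASC1-like, 104 ± 18.1 in VEC-like and 49.3 ± 10.2 in MAC-like cells. Myc was at 100.0 ± 29.7 CPM in ASC3-like, at 96.2 ± 15.2 among ASC2-like and at 72.0 ± 18.8 among ASC1-like cells, against 20.2 ± 3.39 in VEC-like, 12.7 ± 10.0 in MAC-like, 9.29 ± 2.80 in DEND-like and 4.12 ± 1.76 in MONO-like cells. In B-cell-like cells, outside these 7 classes, it ran from 41.4 to 111 CPM over the 6 libraries. These SDs pool the 3 treatments.

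Cold exposure raised ribosome biogenesis genes in non-cycling ASC1-like cells, the progenitor subtype of the tissue. In a test of sums per library with all genes in the fit, 27 of 45 members rose and 0 fell, with 44 higher in COLD and a median log2 fold change of 0.86, where 6.47% of 12590 genes tested rose and the median of all genes was -0.000165. Both COLD values lay above both RT values for 40 of the 45 and for 30.3% of all genes tested. DESeq2 called 21. In the values that follow, CPM were scaled by TMM factors within ASC1-like cells.

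Of the 15 large subunit factors 12 rose. Wdr12, which with Bop1 and Pes1 forms the PeBoW complex of large subunit maturation, was at 11.2 and 13.9 CPM at RT, 40.3 and 36.6 in COLD, and 29.7 and 20.04 in CL. Its log2 fold change in cold was 1.64 (SE 0.22, adjusted p = 0.00263), and it was also called under each of the alternatives run for this comparison. Noc2l, a factor that accompanies early large subunit particles, was at 16.7 and 18.4 CPM at RT and 46.1 and 40.2 in COLD (log2 fold change 1.31, SE 0.17, adjusted p = 0.00238).

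Nop16 and Ppan behaved alike, both COLD values exceeding both RT values by a wide margin. Nop16 was at 20.3 and 22.6 CPM at RT and 58.2 and 51.9 in COLD (log2 fold change 1.37), and Ppan at 19.2 and 21.9 and 51.8 and 46.5 (1.27), each with an adjusted p of 0.00278. The PeBoW partners rose less: Bop1 by 0.87 and Pes1 by 0.86 on the log2 scale (adjusted p = 0.0279 and 0.0115). Gnl3 (nucleostemin, a nucleolar GTPase) rose by 0.95, Nop2 by 0.92 and Rrs1 by 0.87 (adjusted p = 0.00739, 0.0314 and 0.00843). Ebna1bp2, Wdr74 and Rrp1b did not pass, and they are named here after their values were seen.

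Of the 11 small subunit factors 5 rose. Heatr1, a component of the processome that also acts on polymerase I transcription, was at 5.0 and 3.5 CPM at RT and 16.1 and 10.9 in COLD (log2 fold change 1.60, SE 0.32, adjusted p = 0.0152). Utp4 was at 12.8 and 14.2 CPM at RT and 29.5 and 28.3 in COLD (log2 fold change 1.11, adjusted p = 0.00494), and Bysl rose by 1.09 (adjusted p = 0.0457). Utp20 and Wdr43 were higher by 0.72 and 0.58 without passing (adjusted p = 0.0985 and 0.0770).

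RNA polymerase I genes were split. Polr1e, a subunit needed for initiation, was at 4.7 and 3.1 CPM at RT and 13.6 and 12.0 in COLD (log2 fold change 1.63, SE 0.36, adjusted p = 0.0218), and Polr1a, the largest catalytic subunit, at 8.5 and 9.4 and 18.3 and 20.01 (1.11, adjusted p = 0.00988). The other catalytic subunit, Polr1b, was at 2.8 in both RT libraries and at 4.1 and 6.1 in COLD (0.86, adjusted p = 0.175). Neither initiation factor passed: Ubtf was at 111 and 117 CPM at RT and 115 and 84.0 in COLD (-0.20, adjusted p = 0.621), and Rrn3 at 10.9 and 12.1 and 12.6 and 12.0 (0.10, adjusted p = 0.817). Ubtf was the only member lower in COLD.

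In the H/ACA particle, which pseudouridylates ribosomal RNA, 3 of 4 members rose. Nhp2 was at 69.6 and 68.0 CPM at RT, 158 and 133 in COLD and 146 and 103 in CL, a log2 fold change in cold of 1.08 (SE 0.22, adjusted p = 0.0147). Dkc1, the pseudouridine synthase, rose by 0.64 (adjusted p = 0.0333). In the C/D particle Fbl rose from 65.1 and 64.2 CPM to 114 and 109 (0.78, adjusted p = 0.0144), whereas its partners Nop56 and Nop58 were higher by 0.53 and 0.46 and did not pass (adjusted p = 0.114 and 0.246). Nolc1, which chaperones both particles, rose by 0.86 (adjusted p = 0.0163).

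Among nucleolar proteins Ddx21, a helicase, rose from 25.3 and 26.7 CPM to 57.7 and 55.4 (log2 fold change 1.12, adjusted p = 0.00662) and Mybbp1a by 0.77 (adjusted p = 0.0341). The abundant pair did not pass, and RT replicate 2 was low in both. Npm1 (nucleophosmin) was at 391 and 291 CPM at RT and 923 and 805 in COLD (log2 fold change 1.34, SE 0.44, adjusted p = 0.0820), and Ncl (nucleolin) at 254 and 87.8 and 328 and 301 (0.88, adjusted p = 0.228). Myc was at 67.3 and 36.1 CPM at RT, 102 and 83.5 in COLD and 72.9 and 79.6 in CL (cold log2 fold change 0.81, adjusted p = 0.0735).

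**Figure D2:**
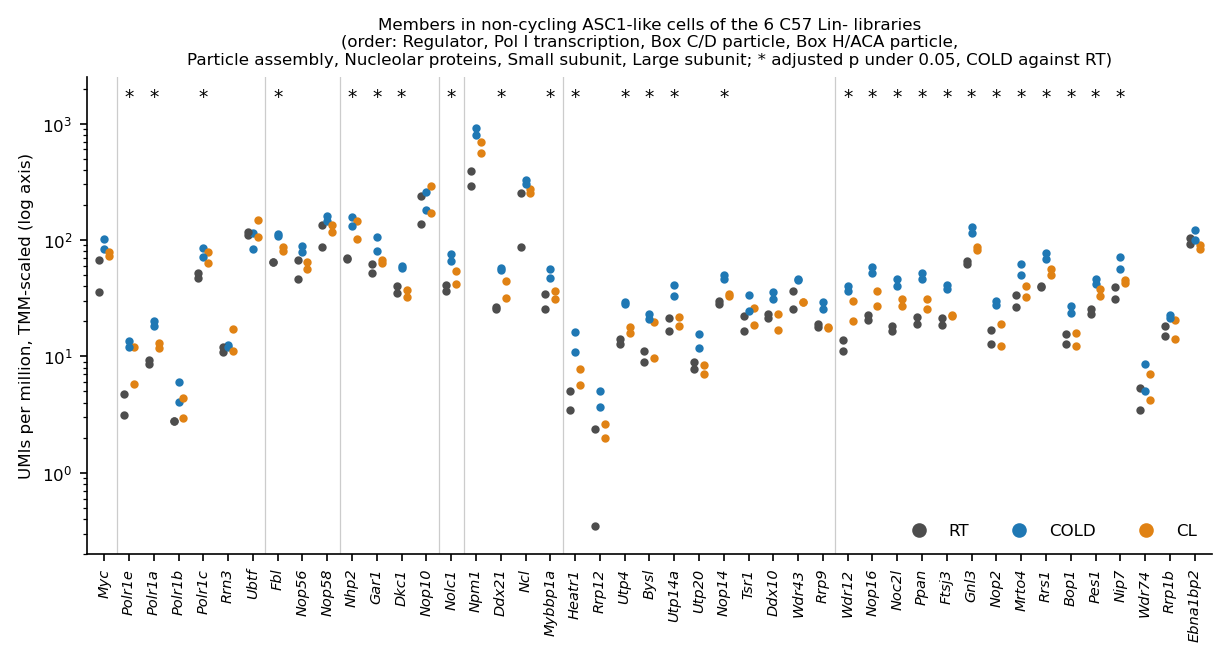
TMM-scaled CPM (log axis) of each of the 45 members in non-cycling ASC1-like cells, in blocks by role, with 1 point for each of the 6 C57 Lin- libraries coloured by treatment. Both COLD points lie above both RT points for 40 members, as for 30.3% of all genes, and Ubtf and Rrn3 show no such gap.

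The count of 27 depends on single libraries and on the scaling. Leaving out RT replicate 1 gave 11 and RT replicate 2 gave 14, while leaving out COLD replicate 1 gave 7 and COLD replicate 2 gave 14, all higher in COLD. TMM factors were 0.863 and 1.38 for the RT libraries and 0.849 to 1.02 for the others; with library totals in place of TMM, 4 members were called (Wdr12, Heatr1, Polr1e and Npm1), and 42 were higher with a median of 0.71. On that scale the summed members were 1941 and 2529 CPM in the RT libraries, and with TMM 2252 and 1836, so the order of the RT libraries turned while both COLD sums (3881 and 3291 CPM, 3803 and 3444 with TMM) stayed above both. The share of 6.47% of all genes belongs to the main fit. No such share is given for the alternative fits, DESeq2 included, so their counts stand without a background.

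Other quantities differed between libraries of the same cells. Different clusters held most ASC1-like cells in each library: 63.0% and 76.9% in COLD fell in a cluster led by Ccl2, Cxcl10 and Tnc (cluster 0), 94.3% of RT replicate 1 in a cluster led by Smoc2, Hsd11b1 and Cxcl14 (cluster 6), and 93.3% of RT replicate 2 in a cluster led by Smoc2, Blnk and Pappa (cluster 2). Within cluster 2 the summed members were 2289 (36 cells) and 2504 CPM at RT and 4754 and 4665 in COLD, within cluster 0 they were 3216 and 2866 at RT (22 and 41 cells) and 3661 and 3111 in COLD, and within cluster 6 they were 1912 and 2831 (46 cells) at RT and 2592 and 2255 in COLD. Summed adipocyte markers in the ASC1-like cells were 273 and 177 CPM at RT and 573 and 476 in COLD, and stress genes were 11477 and 4758 at RT and 6418 and 5911 in COLD, between the RT values. Summed markers of proliferating cells, in cells under the gate, were 2.79 and 1.43 CPM at RT and 56.5 and 37.4 in COLD. With only cells of 0 gate UMIs kept, 21 members were called, and the part of the other quantities in the result was not tested.

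The rest of the pathway in cold ASC1-like cells gave smaller counts. Of 100 other assembly factors 11 rose, where 6.47% of all genes did, 91 were higher and the median log2 fold change was 0.38, with Nol8 (1.27, adjusted p = 0.00469) and Gtpbp4 (0.98, adjusted p = 0.00789) at the smallest p. Of 10 exosome genes tested 0 were called by edgeR (2 at an unadjusted p under 0.05). Ribosomal protein genes were higher for 74 of 80 with a median of 0.99, but 0 passed (1 at an unadjusted p under 0.05), and their share of UMIs in RT replicate 2 was the low value given above. Of 10 tested Myc partners and relatives Mycn fell (log2 fold change -4.39, adjusted p = 0.00623), and of 14 Myc-dependent growth genes Shmt1, a folate enzyme, rose (2.95, adjusted p = 0.0188). With 5.95% of all genes lower and 6.47% higher, 1 of 10 and 1 of 14 are near the background.

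In CL the same genes were higher on balance without passing the test. In ASC1-like cells 0 of 45 members were called (1.53% of all genes were, in either direction), with 12 at an unadjusted p under 0.05 (14.4% of all genes), 38 higher and a median log2 fold change of 0.33. DESeq2 called 1, and the fit with replicate number as a block called 1. Values closest to a call were Wdr12 (log2 fold change 0.99, adjusted p = 0.0906) and Nhp2 (0.85, adjusted p = 0.114). Npm1 was higher by 0.88, Heatr1 by 0.57 and Fbl by 0.37 (adjusted p = 0.406, 0.538 and 0.324), while Nop2, Bop1, Wdr43, Dkc1 and Utp20 lay between 0.00 and -0.11. COLD and CL were set against the same RT libraries, and whether the responses differ from each other was not tested.

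In the other Lin- classes tested, ASC2-, ASC3- and VEC-like cells, 0 members passed in C57 animals, also when any 1 library was left out. With the Adrb1 line added to the fit, 3 members rose in cold ASC2-like and 3 in cold ASC3-like cells, where 4.39% and 5.2% of all genes changed in either direction. In cold ASC2-like cells 0 of 45 were called (0.889% of all genes), with 7 at an unadjusted p under 0.05 (10.1% of all genes) and 37 higher at a median log2 fold change of 0.19. Bop1 (0.76), Wdr12 (0.55) and Rrs1 (0.49) were highest of the panel with Polr1b (0.61), and Npm1 (-0.56), Myc (-0.34) and Ncl (-0.32) were lower. In cold ASC3-like cells 0 of the 40 members tested were called (0.475% of all genes; 2 at an unadjusted p under 0.05, as 7.88% of all genes), with 28 higher and a median of 0.16. In cold VEC-like cells 0 of 43 were called (0.366%; 2 at an unadjusted p under 0.05, as 9.79% of all genes), with 33 higher and a median of 0.19, from -0.83 for Utp20 to 0.72 for Wdr12 in the panel.

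In CL the counts were also 0. In ASC2-like cells 21 of 45 were higher (median -0.02, 0.0556% of all genes called), in ASC3-like cells 20 of 40 (median -0.000665, 0.114%) and in VEC-like cells 28 of 43 (median 0.14, 0.00964%). At an unadjusted p under 0.05 there were 1, 2 and 1 members, beside 7.57%, 6.42% and 8.95% of all genes. DESeq2 called 0 members in all 6 of these comparisons. Members below the filter on low counts were Polr1b, Polr1e, Rrp12, Wdr74 and Heatr1 in ASC3-like cells and Polr1b and Rrp12 in VEC-like cells. In bulk sums, fewer cells that express a gene and less RNA per cell cannot be told apart.

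**Figure D3:**
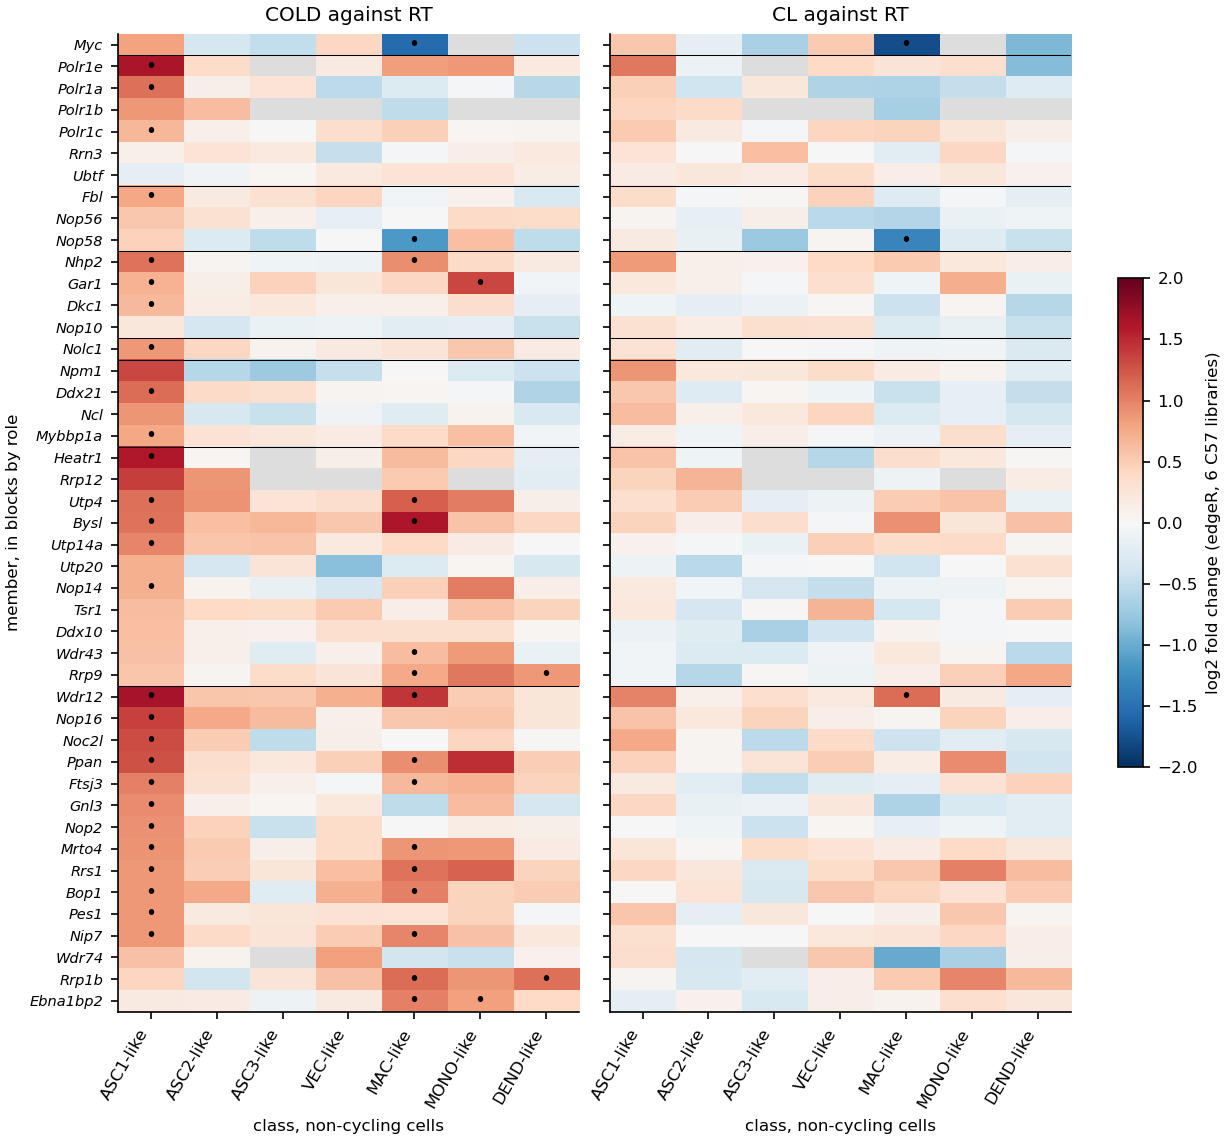
Heat maps of the log2 fold change of each member (rows, in blocks by role) against RT in non-cycling cells of each class (columns), for COLD and for CL, with members past an adjusted p of 0.05 marked. The cold column of ASC1-like cells is higher for 44 of 45 members. In cold MAC-like cells 14 members are marked as higher and 2 as lower, where 17.8% and 17.9% of all genes rose and fell.

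The difference between classes in the cold response was tested directly. For 13 of 45 members the cold response was larger in ASC1-like than in ASC2-like cells (3.48% of all genes differed in that direction), and for 0 it was smaller. Npm1 was at 547 and 536 CPM at RT and 365 and 367 in COLD in ASC2-like cells, and the ASC1-like values stand above, a difference in response of 1.89 on the log2 scale (SE 0.29, adjusted p = 0.00110). Myc was at 131 and 88.4 CPM at RT and 85.6 and 87.9 in COLD in ASC2-like cells, a difference of 1.13 (SE 0.17, adjusted p = 0.00103). Ncl (1.20), Nhp2 (0.98), Heatr1 (1.55) and Wdr12 (1.01) also differed. Bop1 (0.03), Nop56 (0.20), Ubtf (-0.15) and Rrn3 (-0.18) did not pass. In the same test 39 of 80 ribosomal protein genes had a larger cold response in ASC1-like cells and 0 a smaller one. Their median difference was 1.74, beside 0.53 for the members. Ribosomal protein genes made up 1.97% of UMIs in non-cycling cluster 2 cells of RT replicate 2 and 13.3% in an ASC2-like cluster led by Cxcl13. The part of this in the differences was not tested.

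Against VEC-like cells the cold response of ASC1-like cells was larger for 6 of 44 members (2.54% of all genes), namely Npm1 (1.81), Nop16 (1.24), Noc2l (1.18), Nhp2 (1.16), Ddx21 (1.07) and Nop14 (1.04), and smaller for 0. This count was 0 without RT replicate 2, 1 without either COLD replicate, 2 without RT replicate 1 and 14 without either CL replicate. The count against ASC2-like cells was 5 to 8 when an RT or COLD library was left out, 5 without COLD replicate 1 and 7 without RT replicate 2. Of 80 ribosomal protein genes 45 had a larger cold response in ASC1-like than in VEC-like cells. Their median difference was 1.66, beside 0.56 for the members. For CL 0 members differed from ASC2-like cells (1.05% of all genes in either direction; 12 members at an unadjusted p under 0.05, as 11.7% of all genes) and 0 from VEC-like cells (0.721%; 7 members, as 10.5% of all genes).

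In macrophages more members rose than fell in cold, and a difference from the response of ASC1-like cells was not tested. In non-cycling MAC-like cells in cold 14 of 45 members rose, where 17.8% of all genes did, and 2 fell, where 17.9% did. The count of falls is below the share of all genes. Wdr12 was at 8.2 and 8.2 CPM at RT and 23.3 and 20.8 in COLD (log2 fold change 1.43, SE 0.23, adjusted p = 0.00179). Bysl rose by 1.61, Utp4 by 1.19, Rrp1b by 1.12, Rrs1 by 1.09 and Bop1 by 1.01 (adjusted p = 0.00798, 0.00743, 0.0116, 0.0101 and 0.0146). Ebna1bp2 was at 42.4 and 49.7 CPM at RT and 92.5 and 93.1 in COLD (1.01, adjusted p = 0.00233).

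Nip7 (0.98), Nhp2 (0.92) and Wdr43 (0.62) rose as well, and in all 9 of 15 large subunit and 4 of 11 small subunit members rose. Myc was at 32.3 and 14.4 CPM at RT and 7.5 and 8.3 in COLD (log2 fold change -1.54, SE 0.37, adjusted p = 0.0104), and Nop58 at 137 and 73.5 and 47.5 and 47.4 (-1.14, SE 0.28, adjusted p = 0.0118). RT replicate 1 was the higher of the RT libraries for both genes. Panel members that did not pass ran from -0.51 for Gnl3 to 0.64 for Heatr1, with Npm1 at 0.01 and Fbl at -0.06.

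In CL MAC-like cells Wdr12 rose (1.11, adjusted p = 0.0343; 3.51% of all genes rose) and Nop58 (-1.32, adjusted p = 0.0345) and Myc (-1.78, adjusted p = 0.0358) fell, where 2.44% of all genes fell. The CL calls went to 0 without RT replicate 1 or without CL replicate 1 and to 7 without CL replicate 2, and the cold count was 4 or 10 on leaving out RT replicate 1 or 2, and 9 or 6 on leaving out COLD replicate 1 or 2. Clusters also differed here: 92.8% and 98.3% of RT MAC-like cells fell in a cluster led by Cd209f, Lilra5 and Cd163, while 74.8% and 44.7% of COLD cells lay in a cluster led by Gpnmb and Spp1 and 23.0% and 52.2% in a cluster led by Ccl8 and Folr2. Stress genes were at 11599 and 11844 CPM at RT and 4601 and 4616 in COLD. Within the cluster that held most RT cells the summed members were 2266 and 2041 CPM at RT and 1872 and 1820 in COLD (52 and 46 cells), lower in COLD where the class as a whole was not. In the cluster led by Gpnmb and Spp1 they were 2529 in RT replicate 1 (31 cells) and 2460 and 2564 in COLD, and in that led by Ccl8 and Folr2 1911 and 1907 in COLD. The part of cluster makeup and stress genes in the calls of single members was not tested.

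In the C57 animals monocytes and dendritic cells gave few calls in cold, not above the share of all genes. In cold MONO-like cells Ebna1bp2, at 45.9 and 56.8 CPM at RT and 92.8 and 89.1 in COLD (log2 fold change 0.82, adjusted p = 0.0256), and Gar1, an H/ACA protein, at 17.2 and 16.7 and 54.6 and 29.9 (1.34, adjusted p = 0.0335), rose among 42 members tested, where 7.45% of all genes rose. With replicate number as a block 5 were called, and DESeq2 called 1. The count was 0 without RT replicate 1 or COLD replicate 1, 1 without RT replicate 2 or COLD replicate 2 and 4 without either CL replicate. Median log2 fold change was 0.48 with 37 higher. In cold DEND-like cells Rrp9 (0.87, adjusted p = 0.0360) and Rrp1b (1.11, adjusted p = 0.0431) rose among 44, where 7.06% of all genes did, and the median was 0.10. With the block 4 were called, 2 in each direction, and 0 when any 1 RT or COLD library was left out or with DESeq2. With the Adrb1 line added to the fit 11 rose in MONO-like cells, and 6 rose and 2 fell in DEND-like cells, where 33.6% and 30.2% of all genes changed in either direction.

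In CL 0 members were called in MONO-like cells (0.178% of all genes; 2 at an unadjusted p under 0.05, as 13.7% of all genes, and 0 by DESeq2) and 0 in DEND-like cells (1.34%; 7 at an unadjusted p under 0.05, as 16.9% of all genes, and 0 by DESeq2). Of 80 ribosomal protein genes 29 fell in cold MAC-like, 30 in MONO-like and 50 in DEND-like cells and 0 rose, where 17.9%, 4.89% and 8.36% of all genes fell. Rps12 fell in each (log2 fold change -1.80, -1.65 and -2.01; adjusted p = 0.000293, 0.00423 and 0.00208). Of 100 other assembly factors 33 rose and 1 fell in MAC-like cells, led by Rrp7a (1.44) and Pno1 (1.41), where 17.8% of all genes rose and 17.9% fell. In MONO-like cells 10 of 97 rose and 2 fell, and in DEND-like cells 4 of 99 rose and 2 fell. There 7.45% and 7.06% of all genes rose.

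Cycling cells were then set against non-cycling cells of the same class and library. The summed level was higher in cycling ASC1-type cells in 7 of 7 libraries, by a median ratio of 1.25 (range 1.14 to 1.45), and the UMIs of members per cell by 1.68. In COLD it went from 3881 to 4842 CPM and from 3291 to 4147, in CL from 2929 to 4243 and from 2243 to 2939 (20 cycling cells), and in RT replicate 2 from 2529 to 3128 (30 cycling cells). Of those 30 cells 26 lay on the threshold of the gate. RT replicate 1 had 13 cycling cells, below the minimum of 20. Ratios were 1.20 in adipocyte-like cells (5 of 5 libraries above 1), 1.28 in VEC-like (5 of 5), 1.15 in a cluster named by its leading genes Lrrc15 and Cthrc1 alone (3 of 4, with 0.857 in COLD replicate 2), 1.23 in MAC-like (7 of 8), 1.21 in DEND-like (9 of 9) and 0.963 in MONO-like cells (3 of 9). Of 402 MONO-like cells called cycling 255 lay on the threshold, against 419 of 2451 DEND-like cells. Among VEC-like cells 160 of 345 did, with 23 of 39 in RT replicate 1 and 19 of 25 in RT replicate 2. In CL replicate 2 without shared barcodes, markers of proliferating cells were at 18.5 CPM in cycling and 13.4 in non-cycling MONO-like cells. They were at 1520 and 28.8 in MAC-like and 1396 and 35.7 in DEND-like cells. Whether the cells called cycling were dividing was not tested, for MONO-like cells or for the RT libraries of ASC1-type and VEC-like cells.

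**Figure D4:**
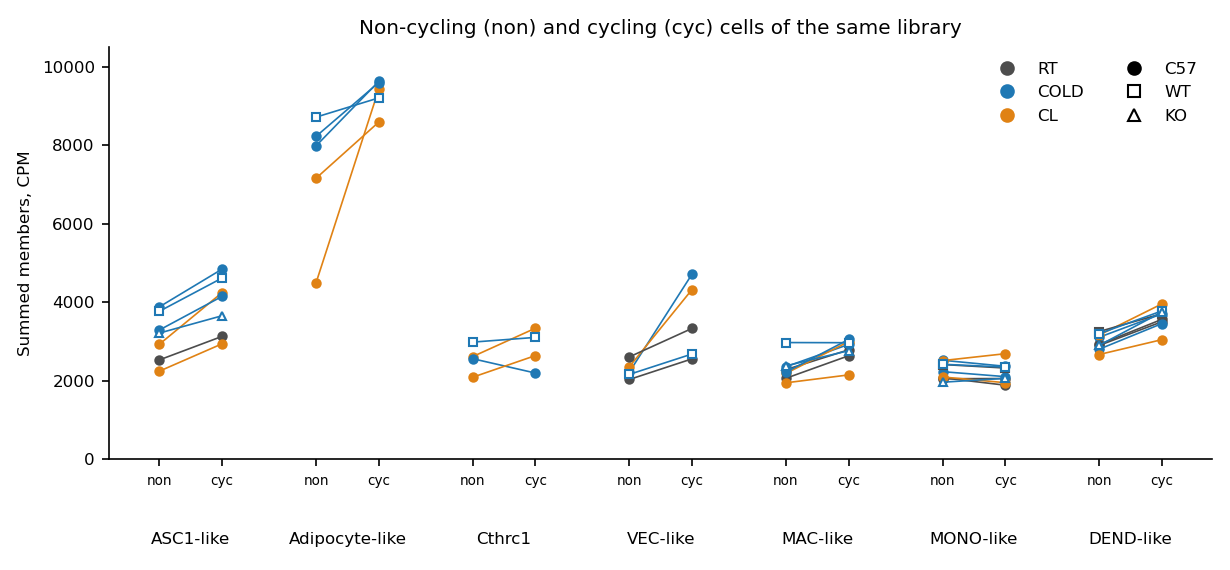
Summed members (CPM, vertical axis from 0) in non-cycling and cycling cells of the same library, joined by a line, where a library held at least 20 cells of both kinds. Classes drawn are ASC1-, adipocyte-, VEC-, MAC-, MONO- and Lin+ DEND-like cells and the cluster led by Lrrc15 and Cthrc1. Lymphoid and other classes are left out, also where they held enough cells. The lines rise in all 7 ASC1-type and all 9 DEND-like pairs, and in MONO-like cells 3 of 9 rise. Of the MONO-like cells called cycling, 255 of 402 lie on the threshold of the gate, and of the ASC1-type cells of RT replicate 2, 26 of 30.

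With TMM scaling, which sets the members against the bulk of genes, the rise fell on certain members. In cycling ASC1-type cells 15 rose, where 19.7% of all genes did, and Myc fell, where 20.7% did, and the median over the members was 0.15. Nop56 was at 58.5 to 145 CPM in cycling cells and at 48.0 to 91.2 in non-cycling cells, higher in cycling cells in 7 of 7 libraries, a log2 difference of 0.59 (SE 0.07, adjusted p = 2.58e-09). Ubtf rose by 0.58 (adjusted p = 9.95e-10), Nhp2 by 0.56, Ncl by 0.54, Nolc1 by 0.43, Npm1 by 0.43 and Nop58 by 0.41.

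By role, all 4 H/ACA members rose (Dkc1 by 0.28, Gar1 by 0.25 and Nop10 by 0.22 beside Nhp2), 2 of 3 C/D members, 2 of 4 nucleolar proteins, Nolc1, 1 of 6 polymerase I genes (Ubtf), 2 of 11 small subunit factors and 3 of 15 large subunit factors (Mrto4 0.37, Wdr12 0.32, Rrp1b 0.31). Gar1 and Nop10 lie outside the rule for naming genes and were added after their values were seen. Wdr12, the leading gene in cold, was higher in cycling cells in the COLD libraries (51.1 against 41.5 CPM and 54.8 against 38.0) and lower in those of CL (16.2 against 30.8 and 8.4 against 20.6). The cycling sums of CL held 353851 UMIs of tested genes from 131 cells and 120611 from 20 cells, so low values there rest on few UMIs. Myc was lower in cycling cells in 7 of 7 libraries, at 83.5 against 105 and 59.6 against 86.5 CPM in COLD and at 59.2 against 75.4 and 16.7 against 81.9 in CL (log2 difference -0.46, SE 0.08, adjusted p = 9.31e-06). Panel members without a call ran from -0.19 for Pes1 to 0.23 for Rrn3. The count of 16 calls was 19 without RT replicate 2 and 19 without CL replicate 2. With cells gated on G2/M genes alone, 8 members rose and 7 fell in this class. These counts, with another gate or a library left out, have no share of all genes beside them. That gate leaves S-phase cells with under 3 G2/M UMIs on the non-cycling side.

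DEND-like cells, the most cycling immune class tested (2451 of 9475 cells), gave a similar number of calls. In 9 libraries 13 of 45 members rose (21.4% of all genes did) and 3 fell (25.2% did). The count of rises is near the share of all genes, and that of falls is below it. The median over the members was 0.07, with 29 higher. Dkc1 rose by 0.48, Nop58 by 0.45, Ncl by 0.42, Nop56 by 0.42, Rrp1b by 0.40, Gar1 by 0.37 and Nhp2 by 0.37, and Rrp12 (-0.49), Noc2l (-0.25, named after its value was seen) and Ddx21 (-0.21) fell. Ncl was higher in cycling cells in 9 of 9 libraries, at a median of 471 against 334 CPM (adjusted p = 6.49e-08). Here too the calls depended on the gate: with G2/M genes alone 4 rose and 15 fell, and with 5 or more gate UMIs 8 rose and 9 fell. The first gate leaves S-phase cells on the non-cycling side, and the second leaves all cells under 5 gate UMIs there. No share of all genes is given for these counts.

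In 8 pairs of MAC-like cells 4 members rose, Wdr12 (0.56, adjusted p = 0.0148), Nolc1 (0.45), Nop56 (0.43) and Nop58 (0.43), where 10.2% of all genes did. This count is not above the share of all genes, and 21 of 45 members were higher, at a median of -0.05. The calls again depended on the gate: with G2/M genes alone, which leaves S-phase cells on the non-cycling side, 2 were called and both were lower. That count has no share of all genes beside it. None of the 4 risen members is among the values that turned direction. With a library left out, 2 rose without COLD replicate 1, COLD replicate 2 or CL replicate 1. In 5 pairs of VEC-like cells 6 of 40 tested members rose, where 4.55% of all genes did: Nhp2 by 1.15, Npm1 by 0.97, Nop58 and Gnl3 by 0.76, and Gar1 and Fbl by 0.69 (adjusted p = 0.000558 to 0.0466). Fbl was higher in cycling VEC-like cells in 5 of 5 libraries, at 92.7 to 139 against 58.2 to 87.9 CPM. Nhp2 was far apart in CL replicate 1 (376 against 121) and COLD replicate 1 (320 against 80.1) but 84.3 against 78.1 in RT replicate 1 and 79.4 against 95.5 in RT replicate 2. DESeq2 called 1 of them, and 2 were called without RT replicate 2 and 0 without CL replicate 1.

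Within the cycle the members were higher in S phase. Cycling ASC1-type cells with more S than G2/M UMIs were set against those with more G2/M than S UMIs in 5 libraries, and the summed level was 1.41 times as high (1.19 to 1.62, 5 of 5 libraries). Of 43 members tested 19 rose, where 9.22% of all genes did, and Ubtf fell, where 8.2% did. DESeq2 called 12, all higher. Noc2l was at 53.2 to 78.8 CPM in S and 17.9 to 35.7 in G2/M cells, without overlap (log2 difference 0.92, SE 0.14, adjusted p = 6.72e-06). Npm1 was at 1178 to 1738 and 770 to 1218 CPM (0.61, SE 0.07, adjusted p = 1.32e-07), higher in S in 5 of 5 pairs.

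Polr1a (0.83), Nolc1 (0.76), Utp20 (0.75), Nhp2 (0.72), Fbl (0.70), Mybbp1a (0.66), Nop56 (0.64) and Nop10 (0.60) were among the largest. All 4 H/ACA and all 4 nucleolar members rose. Ubtf, risen in cycling cells as a whole, was lower in S in 5 of 5 pairs, at 104 to 171 against 137 to 242 CPM (-0.37, SE 0.10, adjusted p = 0.0103). Wdr12 (-0.04), Myc (0.05) and Rrn3 (-0.16) did not pass. Ribosomal protein genes rose in S cells for 46 of 80, and of 96 other assembly factors tested 14 rose and 4 fell. Of all genes 9.22% rose and 8.2% fell.

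**Figure D5:**
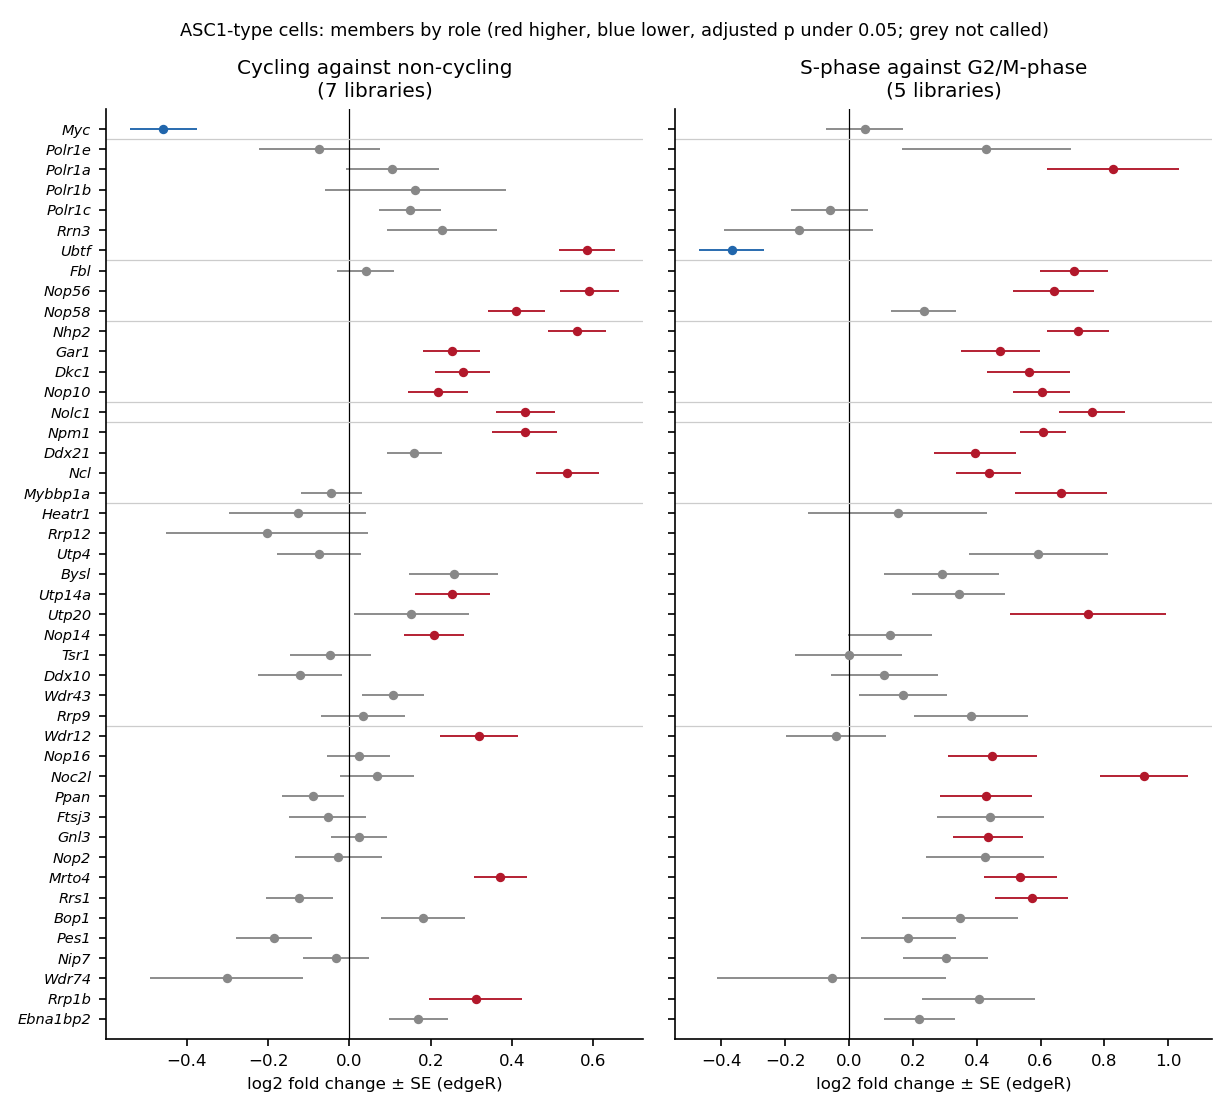
Log2 fold change ± SE from edgeR of each member (rows, in blocks by role) in ASC1-type cells, for cycling against non-cycling cells and for S-phase against G2/M-phase cells, with members past an adjusted p of 0.05 in red (higher) or blue (lower). Myc lies at -0.46 among cycling cells, and Ubtf lies at 0.58 there and at -0.37 in S phase.

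Adipocyte-like cells made up a cluster of 2668 cells led by Car3, Adipoq, Gpd1 and Plin1 and one of 386 cells led by Cfd, Cyp2e1 and Retn. They were defined by clustering the same cells, so their levels are a description with no test. Non-cycling cells held 2.41 times the summed level of ASC1-like cells of the same library at the median (1.54 to 3.19, 6 of 6 libraries), or 2.31 times without the WT RT library (5 of 5, 37 to 45 members higher), and cycling cells 2.22 times (1.99 to 2.92, 5 of 5). Levels were 7982 and 8224 CPM in COLD, 4496 and 7157 in CL and 8714 in WT COLD. In the COLD replicates 414 and 154 cells were under the gate, beside 974 and 218 called cycling. Of those under the gate 166 and 87 held 0 gate UMIs, and 93 and 28 lay 1 UMI below it. The part of division in these levels was not tested. The smaller cluster held 35.7% of the adipocyte-like cells of CL replicate 1 and 1.40% to 10.1% of those of the COLD replicates and CL replicate 2. In CL replicate 1 its non-cycling cells were at 1697 CPM, below the 2929 of ASC1-like cells, and those of the larger cluster at 5541. The larger cluster alone was at 7998 and 8395 CPM in COLD and 7309 in CL replicate 2. The WT RT value, 6252 CPM, came from 32 cells in which the adipocyte markers were at 0 and stress genes at 38814 CPM, so there the label goes against the markers. Adipocyte-like cells were deep, with 3256 to 10438 UMIs per cell in the C57 libraries.

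Members were unequal in that gap. Rrp12 was 3.28 and 2.78 times as high in non-cycling adipocyte-like as in ASC1-like cells of the COLD libraries, Nhp2 3.26 and 4.14 times and Ncl 2.75 and 3.15 times. Ubtf was at 1.14 and 1.04 times, Polr1c at 1.06 and 1.21 and Myc at 1.18 and 1.17. In the CL libraries Rrp12 was at 3.66 and 7.31 times, Nhp2 at 3.14 and 6.27, Ncl at 1.49 and 3.40 and Polr1c at 1.09 and 1.24, while Ubtf (0.671 and 0.950) and Myc (0.403 and 0.920) were lower in adipocyte-like cells. Rrp12 and Polr1c are outside the panel and were picked after their values were seen. Rrp12 was near the floor in ASC1-like cells, at 2.58 ± 1.61 CPM over the 6 C57 libraries (lowest 0.478). The non-cycling adipocyte-like sum of CL replicate 2 held 54 cells, so its Rrp12 ratio rests on few UMIs.

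The Adrb1 line had 1 library per group, so there is no test. In ASC1-like cells of WT animals the summed level was 2267 CPM at RT and 3768 in COLD, a ratio of 1.66, and in KO animals 2474 and 3212, a ratio of 1.30. Members higher in COLD were 39 of 45 in WT (median log2 ratio 0.80) and 34 of 45 in KO (0.47), beside 50.9% and 48.0% of all genes. Nhp2 went from 47.2 to 176 CPM in WT and from 40.9 to 132 in KO, Fbl from 47.2 to 121 and from 55.8 to 110, and Npm1 from 439 to 957 and from 440 to 782.

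Single members varied between the lines, and no difference between WT and KO was tested. Wdr12 went from 13.9 to 39.8 CPM in WT and from 21.7 to 28.0 in KO, and Ddx21 from 22.8 to 64.9 in WT and from 57.7 to 58.0 in KO. Some members were lower in COLD in both: Ubtf went from 176 to 87.9 and from 205 to 81.3 CPM, Ncl from 329 to 281 and from 363 to 257, and Utp20 from 25.0 to 13.9 and from 24.8 to 12.2. In ASC2-like cells the cold over RT ratio was 1.19 in WT and 1.05 in KO, in VEC-like cells 0.944 and 1.03, and in MAC-like cells 1.29 and 1.01. Stress genes in the ASC1-like cells were at 16602 and 18762 CPM in WT and KO at RT and at 5220 and 4863 in COLD. The KO RT Lin- library kept 57.7% of its barcodes, and 41.3% of them had 10% or more mitochondrial UMIs. In the WT RT Lin- library these values were 79.2% and 20.6%. Kit version and, per the study's methods, the day of collection change between RT and COLD in this line, so cold cannot be told apart from either.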

How the data were processed

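Single-cell RNA libraries of both fractions were deposited as matrices of expected counts, that is UMI counts the authors had corrected for free RNA with SoupX, so 97.2% to 99.6% of entries in the deposited files are not whole (further than 1e-06 from a whole number). Alignment by the authors used Cell Ranger 3.0.1 and mm10, per the submitters' processing notes. Cells with under 10% mitochondrial UMIs and under 15000 UMIs were kept, with under 4000 genes in Lin+ and over 100 genes in Lin-, and clustered per fraction (Leiden resolution 1, 2000 variable genes, 30 components). A cluster was named with 3 or more fixed markers raised at least 2-fold, except 1 Lin- cluster, which is called by its leading genes Lrrc15 and Cthrc1. No doublet was removed in the main analysis; leaving out the top 6% of doublet scores was an alternative.

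Expected counts were summed per library, class and cycling state, rounded, and tested with edgeR 4.0.16 (quasi-likelihood, TMM, R 4.3.3) over all genes passing its filter on low counts, with Benjamini-Hochberg adjusted p under 0.05 as the threshold. States needed 20 cells per library. Treatments were fitted on the 6 C57 libraries of a class; cycling states were compared within library; differences between responses of 2 classes used an interaction term with library as a term. DESeq2 1.42.0 was an alternative. Replicate numbers mark a shared experiment, per the study's methods, and samples of the same number correlated at -0.0729 to 0.290 in their deviations from group means; fits with and without the block were run. Libraries are pools of animals, and p-values measure the spread between pools. The Adrb1 line ratios added 1 CPM to each value and, over all genes, used those with 20 or more UMIs.

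Genes named are a fixed panel of 23 members by role and, in each comparison, every member past the threshold, or the 10 of largest change; of other pathway lists, the 2 of smallest p in each direction. Members and lists were chosen with earlier results of these data known. The scripts were tested on simulated data. Clustering used scanpy 1.11.5 and Python 3.11.15.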

Additional observations from a re-analysis of the deposited data

Results flagged for a closer look

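The cold response of ASC1-like cells differed from that of ASC2-like cells in a test of the difference itself for 13 members, all larger in ASC1-like cells, where 3.48% of all genes differed in that direction. The count was 5 without COLD replicate 1, 7 without RT replicate 2, 8 without RT replicate 1 or COLD replicate 2 and 13 or 16 without a CL replicate. Differences on the log2 scale were 1.89 for Npm1, 1.55 for Heatr1, 1.20 for Ncl, 1.13 for Myc, 1.01 for Wdr12, 0.98 for Polr1a, 0.98 for Nhp2, 0.89 for Ppan, 0.82 for Gnl3, 0.76 for Noc2l, 0.72 for Ddx21, 0.70 for Nop58 and 0.57 for Fbl. Npm1, Ncl, Myc and Nop58 are among them although none of these passed the test of cold within ASC1-like or within ASC2-like cells. Of 80 ribosomal protein genes 39 had a larger cold response in ASC1-like than in ASC2-like cells. Against VEC-like cells 45 did.

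Against VEC-like cells the same test passed for 6 members, all larger in ASC1-like cells (2.54% of all genes), with differences of 1.81 for Npm1, 1.24 for Nop16, 1.18 for Noc2l, 1.16 for Nhp2, 1.07 for Ddx21 and 1.04 for Nop14. This count was 0 without RT replicate 2, 1 without either COLD replicate, 2 without RT replicate 1 and 14 without either CL replicate.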

How the results depend on the processing

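The 545 named values, 109 of them called in the main fit, had 8561 alternative values. Counts of called members are not among these and follow below. Of the 8561, 7664 kept direction and side of the threshold, 293 kept direction but no longer passed and 101 newly passed. Only a called value can stop passing, so the 293 belong to the called values. A further 499 moved by more than the margin allowed. The last 4 turned: in cycling DEND-like cells gated on G2/M genes, Nolc1 was at -0.095, Rrs1 at -0.056, Gnl3 at -0.25 and Wdr43 at -0.30. The count in cold ASC1-like cells was 13 with sums thinned to equal totals, 4 with library totals in place of TMM (chosen after seeing the data) and 7 to 29 with a library left out. In CL ASC1-like cells it was 1 with DESeq2, 4 with no filter on low counts and 0 to 2 with a library left out. With the replicate block, counts moved by over 1.5 times in CL ASC1-like (1), cold MONO-like (5) and cold DEND-like cells (4), and the block changed the count of no other comparison by that much. Adding the Adrb1 line with line as covariate gave 3 in cold ASC2-like, 3 in cold ASC3-like, 11 in cold MONO-like and 8 in cold DEND-like cells. Cold MONO-like counts were also 1 with DESeq2, 8 with no filter and 1 with cells of 0 gate UMIs. Cold DEND-like counts were 0 with DESeq2, 1 (lower in COLD) with cycling cells kept in, and 1 each with cells of 0 gate UMIs, without high doublet scores and at Leiden resolution 0.5.

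In cycling DEND-like cells 17 were called with 5 or more gate UMIs (8 up, 9 down) and 19 with the G2/M gate (4 up, 15 down). The G2/M gate leaves cells with under 3 G2/M UMIs, S-phase cells among them, on the non-cycling side. In cycling MAC-like cells 2 were called with 5 or more gate UMIs, 2 without thinning and 2, both down, with the G2/M gate. In cycling VEC-like cells 1 was called with DESeq2, 3 with no filter and 1 with the G2/M gate, and in S against G2/M cells 12 with DESeq2. The CL difference of ASC1- and ASC2-like cells gave 3 with no filter and 1 without ribosomal protein and mitochondrial counts, and the cold difference of ASC1- and VEC-like cells gave 11 with no filter and 10 without high doublet scores. The causes were not tested, and the counts in this section have no share of all genes beside them. With a library left out, counts ranged from 4 to 16 in cold and 0 to 7 in CL MAC-like cells, 0 to 4 in cold MONO-like, 0 to 2 in cold DEND-like, 14 to 19, 12 to 18, 2 to 6 and 0 to 6 in cycling ASC1-type, DEND-, MAC- and VEC-like cells, 14 to 22 in S against G2/M cells, 5 to 16 and 0 to 2 for the cold and CL differences from ASC2-like cells, and 0 to 14 and 0 to 1 for those from VEC-like cells.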
